A study of Mus musculus with 2 samples.

Results

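The 10 genes described here are the pluripotency genes Pou5f1, Nanog, Zfp42, Dppa2, Dppa3, Dppa4, Dppa5a, Esrrb, Klf4 and Tdgf1, chosen by name out of 21938 protein-coding genes of GENCODE M21 on the nuclear chromosomes. For each, every DNase-seq peak and hotspot in the gene body and 30 kb to each side was taken, on the mm10 build. Whole embryos of the B6NCrl mouse strain, 10.5 days old and listed as healthy with males and females pooled, gave 2 biological replicates, and these formed a single group with no treatment, transgene or other strain. DNase-seq maps the stretches of DNA that the enzyme DNase I can cut, which marks open chromatin. A peak is a 150 bp call and a hotspot a broader region of enriched cutting, and each peak carries a strength, the authors' deposited score, which ran from 2 to 149 on nuclear chromosomes and whose definition is not given in the sources used here. The median over all peaks was 41 in replicate 1 (207946 peaks) and 50 in replicate 2 (229568 peaks). The sequencing depth is unknown, so the values carry no counting interval. Since the study has 1 group, no contrast between conditions was made.

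Pou5f1 (also called Oct4), Nanog and Esrrb are transcription factors of the network that holds embryonic stem cells and the early epiblast in a pluripotent state. Most of this network is shut down as the epiblast passes through gastrulation, often with methylation of promoter DNA. By the stage sampled here Pou5f1 and Nanog are known to be used mainly in primordial germ cells, which are rare in a whole embryo, while Klf4 is also used in other tissues, such as epithelia and vessels. In a whole embryo, fewer cells with an open site and less opening per cell cannot be told apart.

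The label of the tissue was set beside markers chosen for it, against 69.7% of all protein-coding genes with a promoter peak in both replicates, so an open marker says little on its own. All 4 neural tube markers and all 4 heart markers had a promoter peak in both replicates, but only 2 of the 4 heart markers had one at the 5'-most TSS. A promoter peak in both replicates was found at 3 of 4 somite and muscle markers and 2 of 4 endothelial markers. None of the 4 blood markers had one (Klf1 had a peak of 37 in replicate 1 alone), and Gata1, Hbb-y and Hba-x had none in either replicate. Red cells circulate at this stage, but their share in these samples was not measured. The cause of the missing peaks was not tested, and a missing peak does not show that a promoter is closed in the cells that use it. None of 5 trophoblast and none of 3 decidua markers had a promoter peak in either replicate.

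The peaks that carry the findings are shown here in the direction of transcription, with every CpG dinucleotide in capitals, because CpG content set the Klf4 promoter apart from the other sites. They are the replicate 1 peaks, read from the RefSeq copy of GRCm38.p6, the assembly of mm10. The Klf4 promoter peak (chr4:55532536-55532685, minus strand) held 18 CpGs and the Esrrb internal promoter peak (chr12:86421496-86421645, plus strand) held 1. The peak upstream of Nanog (chr6:122702696-122702845, plus strand) held 5 CpGs and the peak in a coding exon of Pou5f1 (chr17:35509416-35509565, plus strand) held 4.
Klf4 promoter: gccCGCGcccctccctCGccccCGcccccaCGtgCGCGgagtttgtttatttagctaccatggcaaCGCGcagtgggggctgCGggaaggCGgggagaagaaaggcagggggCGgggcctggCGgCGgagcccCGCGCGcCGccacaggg
Esrrb internal promoter: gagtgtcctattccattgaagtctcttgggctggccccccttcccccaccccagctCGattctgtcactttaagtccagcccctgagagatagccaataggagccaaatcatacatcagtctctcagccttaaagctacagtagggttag
Nanog upstream: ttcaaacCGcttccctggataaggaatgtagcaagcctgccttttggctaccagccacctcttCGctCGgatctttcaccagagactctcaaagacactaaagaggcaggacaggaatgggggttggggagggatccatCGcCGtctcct
Pou5f1 coding exon: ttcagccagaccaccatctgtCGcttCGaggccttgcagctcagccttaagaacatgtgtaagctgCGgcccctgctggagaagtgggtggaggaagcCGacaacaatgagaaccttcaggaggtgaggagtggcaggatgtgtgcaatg

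The promoters of 3 core genes with no shared peak at the main start are shown for contrast, as the 250 bases before the RefSeq start. Only 6 of the 10 genes matched an entry of the RefSeq promoter table. Bases are counted from 1 at the left end of each sequence, and capitals mark exact matches, on either strand, to 5 short motifs: the octamer ATGCAAAT bound by Oct4 and other POU factors, CATTGT of SOX factors, AAGGTCA of Esrrb and other nuclear receptors, CCACCC of KLF factors and AGATAA of GATA factors. A match is a description of the letters and not a bound site. The Pou5f1 promoter (chr17:35505782-35506031, plus strand) held CCACCC on the strand shown at bases 171, 193 and 197 and on the other strand at base 232. The Nanog promoter (chr6:122707239-122707488, plus strand) held CATTGT on the other strand at base 184. Just before that match the letters ttttgcat differ by 1 base from the octamer on the other strand, which an exact search leaves out. The Zfp42 promoter (chr8:43307010-43307259, minus strand) held the octamer on the other strand at base 65, CCACCC at base 94 and, on the other strand, at base 133.
Pou5f1 promoter: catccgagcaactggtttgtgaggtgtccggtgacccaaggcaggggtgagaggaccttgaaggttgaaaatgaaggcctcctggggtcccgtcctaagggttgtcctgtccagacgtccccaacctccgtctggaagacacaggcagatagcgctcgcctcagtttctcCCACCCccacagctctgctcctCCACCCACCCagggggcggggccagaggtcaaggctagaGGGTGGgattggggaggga
Nanog promoter: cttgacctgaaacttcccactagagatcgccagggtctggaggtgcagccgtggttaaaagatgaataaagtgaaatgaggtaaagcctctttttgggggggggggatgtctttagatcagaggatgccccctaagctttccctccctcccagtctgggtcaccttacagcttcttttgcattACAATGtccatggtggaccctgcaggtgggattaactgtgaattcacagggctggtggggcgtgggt
Zfp42 promoter: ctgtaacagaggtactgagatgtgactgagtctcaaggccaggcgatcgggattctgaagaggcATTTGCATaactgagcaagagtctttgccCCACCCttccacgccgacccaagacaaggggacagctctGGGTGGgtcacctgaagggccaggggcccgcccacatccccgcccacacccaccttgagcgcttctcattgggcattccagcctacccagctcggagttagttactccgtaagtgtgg

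Of the 10 genes, 6 had a peak within 1 kb of any annotated transcription start site (TSS) in both replicates, which is called an open promoter here. By the same rule 69.7% of all protein-coding genes were open. In replicate 1 alone 7 of the 10 had such a peak (70.8% of all genes), and in replicate 2 alone 6 did (71.9%). With the 5'-most TSS of each gene alone, 4 of 10 were open, against 65.3% of all genes. These 4 were Klf4, Esrrb, Tdgf1 and Dppa2. With a TSS window of 500 bp 4 of 10 were open, against 68% of all genes, and with the stronger 50% of peaks 4 of 10, against 65.8%. The members' share thus lay nearer to the background in the main setting than in these 3.

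Klf4, a zinc finger factor of the reprogramming set, had the strongest promoter, with a peak of 101 in replicate 1 and 123 in replicate 2 (112 ± 15.6, SD, n = 2) at the same position, centred 144 bp upstream of its TSS. That placed it at the 40.8th and 63.5th percentile of the protein-coding genes with a promoter peak, whose medians were 109 and 117. Its strength lay below the median in replicate 1 and above it in replicate 2. A further shared peak lay 544 and 524 bp upstream (70 and 82). The hotspot over the promoter was 1363 bp wide in replicate 1 and 4061 bp wide in replicate 2.

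Esrrb, an orphan nuclear receptor, had a strong peak at an internal promoter and a weak one at its 5'-most TSS. The internal promoter starts 60527 bp into the gene, and its peak scored 90 and 98 (94 ± 5.66, SD, n = 2). This lay at the 30.8th and 29.1st percentile of promoter strengths. The peak at the 5'-most TSS scored 34 and 50 (42 ± 11.3, SD, n = 2), and both of its values lay below both values of the internal promoter.

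Pou5f1 was counted as open only through internal transcript starts. No peak lay within 1 kb of its 5'-most TSS in either replicate. The peak that met the rule lay 3472 bp inside the gene, with 123 of its 150 bases in coding sequence, and scored 68 and 72 (70 ± 2.83, SD, n = 2). It lies within 1 kb of 4 transcript starts, 2787 to 2803 bp into the gene, and also of the start of Gm19553, which is not a protein-coding gene. Replicate 2 alone had a weaker peak of 36 at 1212 bp.

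Tdgf1 encodes Cripto, the cell surface co-receptor of Nodal. Its strongest promoter peak scored 44 in replicate 1 and 65 in replicate 2 (54.5 ± 14.9, SD, n = 2), but these were different sites, 1668 and 648 bp into the gene. The site at 1668 bp was itself shared, with a peak of 61 at 1648 bp in replicate 2. Both replicates also shared a peak 632 bp upstream of the TSS (42 and 62). Another shared peak lay near 1.2 kb upstream (50 and 69, centred 1172 and 1152 bp from the TSS). Replicate 2 was higher at each of these shared sites.

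The Dppa genes, named for developmental pluripotency-associated expression, were weak or without a peak. Dppa2 and Dppa4 encode related SAP-domain proteins that bind chromatin together. The Dppa2 promoter peak scored 32 and 45 (38.5 ± 9.19, SD, n = 2), centred 342 and 322 bp after the TSS, and stood at the 3.6th and 5.2nd percentile. Dppa3, also called Stella, protects maternal methylation in the early embryo. Its peak scored 30 and 37 (33.5 ± 4.95, SD, n = 2), at the 2.9th and 3.3rd percentile, and lay in an intron 1260 bp after the 5'-most TSS, within 1 kb only of a transcript that starts at 343 bp. With a TSS window of 500 bp neither Dppa3 nor Pou5f1 was open. Among the stronger 50% of peaks of each replicate, Dppa2 and Dppa3 were not open.

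Nanog, a homeobox factor of the ground state, had a promoter peak in replicate 1 alone, with a strength of 35, centred 339 bp upstream. Zfp42 (Rex1, a zinc finger marker of naive stem cells), Dppa4 and Dppa5a (an RNA-binding KH-domain protein) had neither a peak nor a hotspot within 1 kb of a TSS in either replicate. As a measure of how well short reads can be placed, the share of 32-base words that occur once on the nuclear chromosomes was taken within 1 kb of the 5'-most TSS. It was 100% at Nanog and 98.7% at Pou5f1. It was 87.8% at Zfp42 and 89.9% at Dppa4, but 55.4% at Dppa5a. The read length used by the authors is not given in the sources used here, and the part of repeated sequence in the missing Dppa5a peak was not tested.

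In order of mean strength the open promoters were Klf4, Esrrb, Pou5f1, Tdgf1, Dppa2 and Dppa3. The replicate values of Klf4, Esrrb, Pou5f1 and Tdgf1 did not overlap from each gene to the next. Over both replicates the values of Tdgf1 (44 and 65) and Dppa2 (32 and 45) overlapped, as did those of Dppa2 and Dppa3 (30 and 37), while those of Tdgf1 and Dppa3 did not. Within each replicate the order Tdgf1, Dppa2, Dppa3 held. All 6 promoters were stronger in replicate 2, as were 133206 of all 154819 shared peaks. At Tdgf1 the values compared are of different sites. Over 61 peaks of replicate 1 in the windows that overlapped one of replicate 2, strength in replicate 2 exceeded that in replicate 1 by a median of 0.33 on the log2 scale, against 0.26 over all 154819 such peaks.

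**Figure D1:**
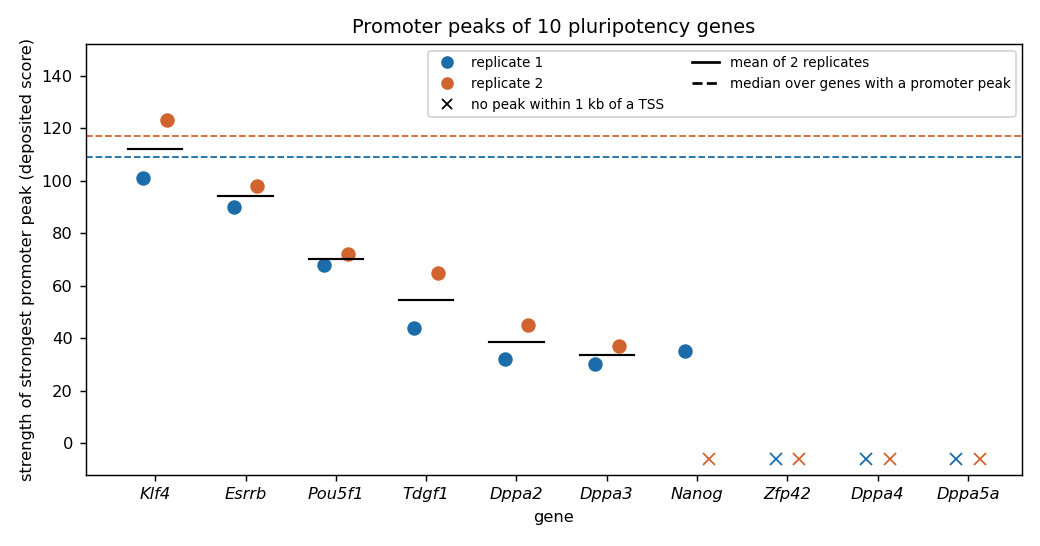
Strength of the strongest peak within 1 kb of any TSS of each gene (vertical axis, deposited score) in replicate 1 (blue) and replicate 2 (orange), with the mean as a black bar, crosses where no peak was found, and dashed lines at the medians of 109 and 117 over protein-coding genes with a promoter peak. Klf4 in replicate 2 is the only value above its dashed line, and Zfp42, Dppa4 and Dppa5a have crosses in both replicates.

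Promoter CpG content, which the choice of genes did not use, was below the median of protein-coding genes in 8 of the 10. The ratio of CpGs observed to those expected from base content, over 500 bp to each side of the 5'-most TSS, was 0.96 at Klf4 (the 96.3rd percentile of protein-coding genes) and 0.602 at Tdgf1 (54.2nd). The other 8 genes ranged from 0.239 at Dppa2 to 0.503 at Zfp42, below the median of 0.552 but between the 27.3rd and 46.6th percentile. All 8 fell in the same quartile of protein-coding genes, from 0.218 to 0.552, in which 64.8% of genes were open, and 4 of the 8 were open. At the 5'-most TSS, where the CpG ratio was measured, 56.9% of the quartile was open, and of the 8 genes only Dppa2 and Esrrb were. None of the 10 fell in the lowest quartile, in which 19% of genes were open at any TSS. In the 2 quartiles above it 96.5% and 98.7% of genes were open, and Tdgf1 and Klf4, the single members in each, were open too.

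**Figure D2:**
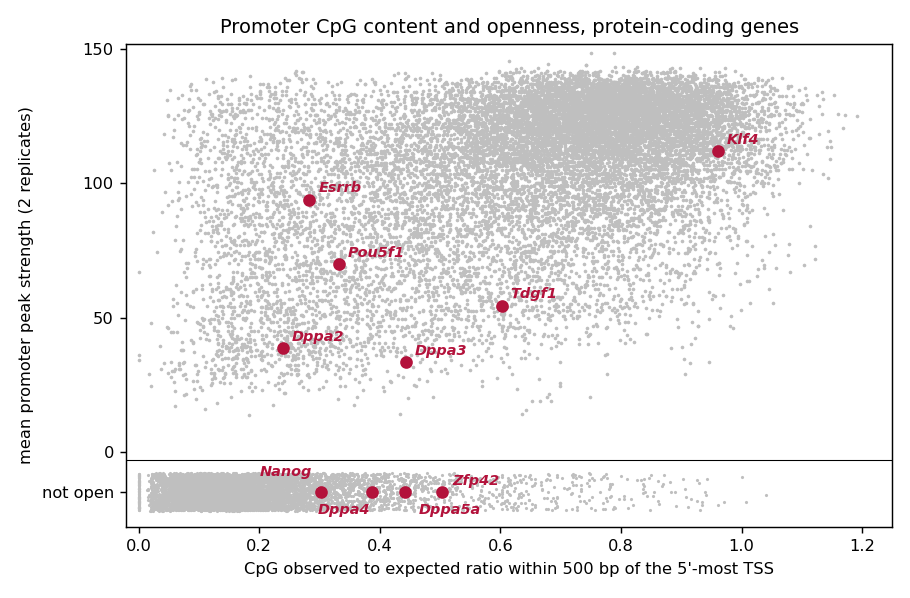
Mean promoter peak strength of 2 replicates (vertical axis, deposited score, with genes not open in both replicates spread at random in the lower strip) against the promoter CpG ratio (observed over expected, 500 bp to each side of the start), for protein-coding genes (grey) and the 10 genes (red). Klf4 lies at 0.96 among the dense cloud of CpG-rich open promoters, and the 8 genes below 0.552 are divided between the open and the not open.

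Known enhancers of the core genes were searched in rough windows placed from general knowledge of stem cells. The windows differ in width, so each is read against the share of all protein-coding genes with a peak in both replicates at the same distance from the 5'-most TSS, and not against each other. The proximal and distal enhancers of Pou5f1, which drive it in the epiblast and in naive and germ cells respectively, were searched from 0.8 to 1.4 kb and from 1.7 to 2.3 kb upstream, and neither window held a peak or a hotspot in either replicate. At those distances 12.6% and 6.21% of all genes had a peak in both replicates, so an empty window is the usual outcome. The nearest shared peak upstream of Pou5f1 was farther out, at 3648 and 3628 bp, with strengths of 54 and 39.

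At Nanog the window placed for the enhancer about 5 kb upstream did hold a shared peak, although the promoter did not. It lay 4719 bp upstream in replicate 1 (58) and 4679 bp upstream in replicate 2 (73), with a mean of 65.5 ± 10.6 (SD, n = 2), in a hotspot at the highest deposited −log10 q of 100. A peak in both replicates 4 to 6 kb upstream was found at 13.1% of all genes. The window 43 to 47 kb upstream also held a shared peak, at 46799 and 46819 bp (60 and 73), where 23.6% of all genes had one in both replicates. Next to it, outside that window, lay a peak at 47719 and 47739 bp (73 and 85). Both sit in the interval between Dppa3 and Nanog. Seen from Dppa3, the stronger lay 29498 and 29478 bp beyond the gene end, just inside the 30 kb limit, and the weaker lay at 30418 and 30398 bp, just outside it.

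Klf4 has stem cell enhancers downstream, beyond the 30 kb limit. The window from 50 to 70 kb downstream held 4 peaks in each replicate, of which 3 were shared, and 65.1% of all genes had a peak in both replicates in this 20 kb window. The strongest, 51816 and 51836 bp downstream, scored 64 and 101, and the next, at 54336 and 54356 bp, scored 59 and 75. Whether these sites act on Nanog or Klf4 in the embryo was not measured. For the other 7 genes no enhancer position was set. The nearest upstream peak beyond 1 kb of the TSS was shared at Tdgf1 (1172 and 1152 bp, strengths 50 and 69) and at Dppa4 (3903 and 3863 bp, strengths 21 and 31). Zfp42 had none nearer than 21870 bp in replicate 1 and 24230 bp in replicate 2, with strengths of 20 and 24.

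The windows of the 10 genes held 94 distinct peaks in replicate 1 and 105 in replicate 2, each inside a hotspot, with the overlapping windows of Dppa2 and Dppa4 counted once. Of these 61 were shared in each replicate, or 64.9% and 58.1%, against 74.5% and 67.6% of all peaks. Their median strength was 38.5 and 51, near the 41 and 50 of all peaks. The median density over the 10 windows was 12.8 and 13.6 peaks per 100 kb, and over the windows of all protein-coding genes it was 11.4 and 12.7. For shared peaks it was 8.38 in both replicates, against 8.85 and 8.81.

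The density differed widely among the 10 genes. Zfp42 had 7 peaks in replicate 1 and 4 in replicate 2, of which 1 was shared, 26730 and 26710 bp upstream (44 and 60). Dppa4 had 5 in each replicate with 2 shared, and neither shared peak lay in its gene body. Hotspots covered 1.01% and 0.84% of the Zfp42 window and 0.972% and 1.04% of the Dppa4 window, against a median of 3.56% and 4.87% over all genes. Pou5f1 had 11 peaks in each replicate with 9 shared, the highest shared density of the 10 (13.9 per 100 kb in both replicates). Of these shared peaks only that at 3472 bp lay inside Pou5f1. Those from 8052 to 11732 bp after its TSS lay in or between Tcf19 and Cchcr1, and that at 28532 bp in Psors1c2. Counting all peaks, Nanog was densest in replicate 1 (19.4 per 100 kb) and Dppa5a in replicate 2 (26.2).

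**Figure D3:**
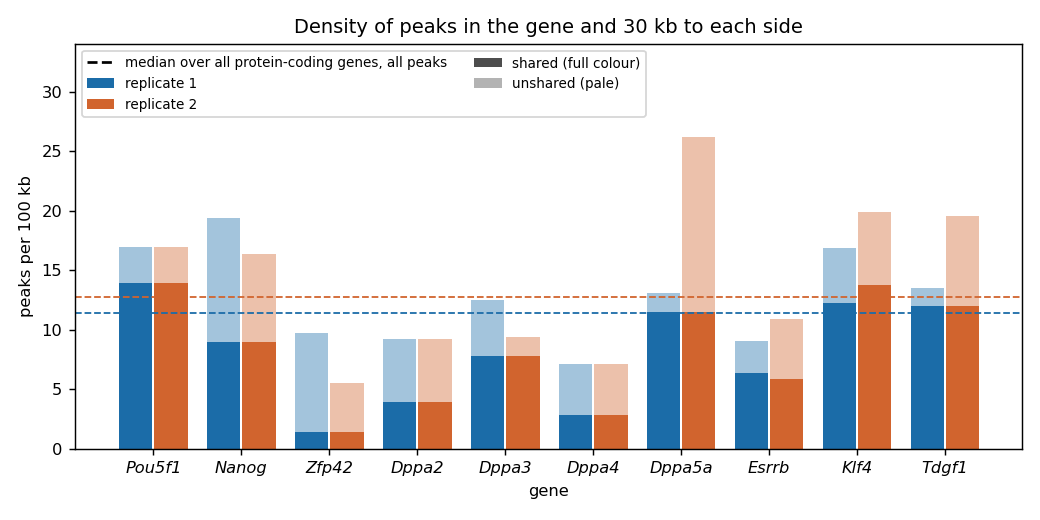
Peaks per 100 kb (vertical axis) in each gene with 30 kb to each side, in replicate 1 (blue) and replicate 2 (orange), with the part shared by the replicates in full colour, the rest pale, and dashed lines at the medians of 11.4 and 12.7 over all protein-coding genes. Zfp42 and Dppa4 have the least shared density, and Dppa5a shows the largest gap between replicates, 13.1 against 26.2.

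The strongest shared site often lay outside the gene. Only Klf4 had its strongest peak at its own promoter in both replicates, 1 of 10 genes against 32.1% of all protein-coding genes. In 5 of the 10 windows the strongest shared peak lay at another coding gene's TSS, against 30.6% of the windows of all protein-coding genes. Near Pou5f1 it was the promoter shared by Tcf19 and Cchcr1, with strengths of 122 and 133. Near Dppa5a it was Ddx43, a germ cell RNA helicase gene (95 and 99), and the oocyte gene Ooep next to it scored 68 in both replicates. Near Tdgf1 it was Lrrc2 (89 and 104), near Dppa3 the cytidine deaminase gene Apobec1 (80 and 95), and near Dppa4 it was the weak promoter of Dppa2.

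In the windows of Nanog, Zfp42, Dppa2 and Esrrb the strongest shared site lay away from any TSS. These were 4 windows, and over all protein-coding genes 22.6% of windows had their strongest shared peak away from a protein-coding TSS. In the Nanog window the strongest shared peak lay in an intron of the glucose transporter gene Slc2a3 (83 and 97), whose TSS peak scored 75 and 93. The nearer sites downstream of Nanog scored 46 and 59 at 8621 and 8561 bp and 70 and 78 at 12661 bp, all between the genes. Zfp42 and Dppa2 were led by intergenic peaks, the latter 23142 and 23162 bp after the Dppa2 TSS and beyond its end (55 and 82). Gdf3, between Apobec1 and Dppa3 and itself used in stem cells, had a TSS peak of 26 in replicate 1 alone.

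Esrrb and Klf4 were the only windows with shared peaks inside the gene body over 1 kb from any TSS of that gene. The share of all protein-coding genes with such a peak was not counted. Short genes have little sequence that far from a TSS, and Dppa5a spans 1126 bp and Dppa3 3863 bp. Klf4 spans 5324 bp. Tdgf1 (6556 bp), Nanog (7145 bp), Dppa4 (10505 bp), Zfp42 (11918 bp) and Dppa2 (15816 bp) are longer and had no such shared peak. The part of gene length was not tested. Esrrb spans 160512 bp and had 20 peaks in replicate 1 and 24 in replicate 2, with 14 and 13 shared. Per 100 kb of its window that was 9.07 and 10.9 peaks, below the all-gene medians of 11.4 and 12.7. Its strongest site was intronic, at 72353 bp in both replicates, and scored 92 and 111 (102 ± 13.4, SD, n = 2), above the internal promoter in each. Another intronic site, at 41813 and 41833 bp, scored 84 and 90. At Klf4 a site in the coding exons, all 150 bases of the replicate 1 peak being coding, 2036 and 2056 bp into the gene, scored 101 and 109 (105 ± 5.66, SD, n = 2), equal to the promoter in replicate 1. An intergenic site 17616 and 17576 bp downstream of the Klf4 TSS scored 92 and 105.

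**Figure D4:**
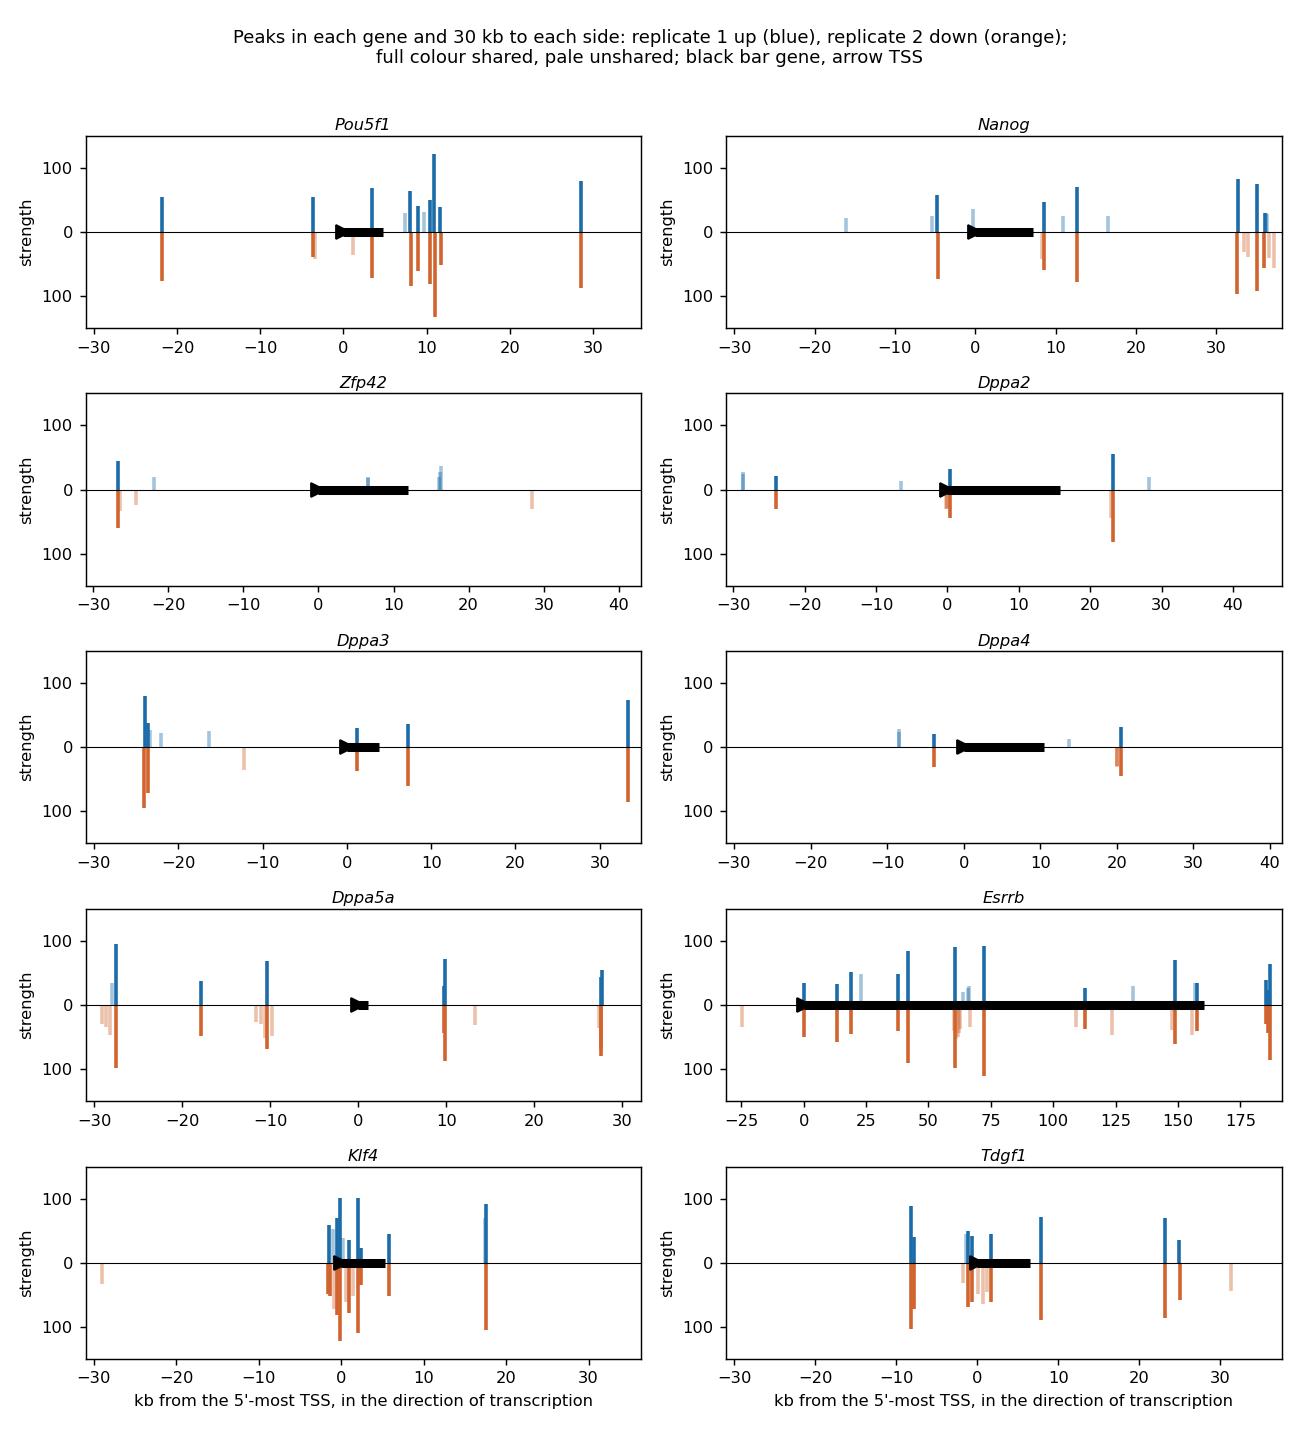
Position of each peak (horizontal axis, kb from the 5'-most TSS in the direction of transcription) and its strength (vertical axis, deposited score, replicate 1 upward in blue and replicate 2 downward in orange) in the windows of the 10 genes, with shared peaks in full colour and unshared ones pale. Peaks crowd at the Klf4 TSS and are spread along the long Esrrb gene body, while the shared peaks of Nanog, Zfp42, Dppa4 and Dppa5a lie outside those genes.

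Motifs were searched in the distal peaks, those over 1 kb from any annotated TSS. The windows held 64 such peaks in replicate 1 and 63 in replicate 2. The octamer ATGCAAAT was in 0 and 1 of them, against 1.03% and 1.04% of all distal peaks. CATTGT was in 5 and 4 (7.81% and 6.35%, against 9.76% and 9.66%), AAGGTCA in 3 and 4 (4.69% and 6.35%, against 5.9% and 5.43%), and CCACCC in 4 and 4 (6.25% and 6.35%, against 11.9% and 11.8%). AGATAA was in 3 and 2 of them, or 4.69% and 3.17%, against 6.96% and 6.91%. With so few peaks each share rests on 0 to 5 sites. The Nanog upstream peak and the Klf4 promoter peak shown above held none of the 5 motifs. Of 32851 RefSeq promoters, 1.74% held the octamer, 12.6% CATTGT, 4.72% AAGGTCA, 31.5% CCACCC and 11.2% AGATAA. These promoters are 300 bases long, 50 of them after the start. Of the 9 promoters of the 10 genes in the table, 1 held the octamer, 4 CATTGT and 6 CCACCC, and none held the other motifs. The 2 Nanog promoters among them overlap, so these counts are not of independent sequences.

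Other genes of pluripotency, from a list that leaves out the 10, were open in 16 of 18 cases (88.9%), with 69.7% of all protein-coding genes open by the same rule. The strongest were Fbxo15 (130 and 137), Sall4, a zinc finger factor also used in limbs (131 in both), and Tbx3, a T-box factor also used in heart and limbs, with 129 and 130, a mean that Tet1 (127 and 132) equalled. Gdf3 and Tcl1 were not open. With the 5'-most TSS alone 13 of the 18 were open, against 65.3% of all genes. Many genes of this list have known uses in later tissues.

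Over all protein-coding genes 69.7% were open at any TSS and 65.3% at the 5'-most TSS. Primed epiblast genes, used just before gastrulation, were open in 9 of 10 cases by the first rule and 8 by the second. They were led by Pou3f1 (111 and 114), Zic2 (109 and 100) and Otx2 (79 and 100), all used in the nervous system, and Lefty2, an inhibitor of Nodal, had a peak of 49 in replicate 2 alone. Of 10 genes used in germ cells, 4 were open by either rule. Kit (115 and 122), Dazl (114 and 118) and Prdm1 (114 and 117) were the strongest. Ddx4, Dnd1, Mael and Stk31 had no promoter peak, and Nanos3 had one of 65 in replicate 2 alone.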

How the data were processed

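DNase-seq was run on 2 whole-embryo replicates. Per the labels and README texts, the authors called peaks and hotspots in each replicate on its mm10 alignments. The aligner, caller, versions, thresholds and depth were not given in the sources used here. Peaks carry a deposited score, called strength, and hotspots a deposited −log10 q-value from 1.30 to 6, or 100 for smaller q-values. After 28 and 47 repeated peak lines were dropped, nuclear chromosomes alone were kept. Genes and TSSs came from GENCODE M21 and sequences from GRCm38.p6, whose chromosomes hold every peak. An open promoter has a peak within 1 kb of any TSS in both replicates. Peaks of the replicates are shared when they overlap by 1 bp or more, and the peak pairs in the text are nearest overlapping ones. Values are given per replicate with the mean ± SD (n = 2), no test was run, and percentages over all genes are descriptions. The members, lists, motifs and windows were chosen with earlier results of these data known. All 10 members are named, with neighbouring coding genes that had a TSS peak of both replicates in a window, and in each further list the 3 strongest open and up to 5 other genes in alphabetical order. Counting functions were tested on simulated peaks. Alternatives changed the TSS window and TSS set, the flank, the overlap, the share of peaks kept, the enhancer windows, the hotspot threshold and the replicates. Python 3.11.15, numpy 2.4.6 and pandas 2.3.3 were used.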

Additional observations from a re-analysis of the deposited data

How the results depend on the processing

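The number of genes with an open promoter, 6 in the main setting, was 6 with a TSS window of 2500 bp, with TSSs of protein-coding transcripts alone and without replicate 1, and 7 without replicate 2. It was 4 with a window of 500 bp, with the 5'-most TSS and with the stronger 50% of peaks (against 68%, 65.3% and 65.8% of all genes), and all these counts lay within 1.5 times of the main one, as did the counts of enhancer windows (3 throughout) and of promoters with a hotspot in both replicates (6, or 5 at a −log10 q of 2 or more). The share of all genes with a promoter hotspot in both replicates was not counted. The strength at Esrrb was 42 with the 5'-most TSS, in place of 94. The median density of peaks, 13.2 per 100 kb as the mean of replicates, was 15.8 with a flank of 10 kb, 12.5 with 50 kb and 6.79 with the stronger 50% of peaks, against all-gene medians of 12.4, 12.0 and 6.49, and 12.8 to 13.6 when a replicate was left out. The median density of shared peaks, 8.38 per 100 kb, was 8.92 with a flank of 10 kb, 8.78 with 50 kb, 5.29 with the stronger 50% of peaks and 7.64 with an overlap of 75 bp or more, against 9.07, 8.77, 5.4 and 8.16 over all genes, and cannot be given with 1 replicate. Fewer peaks and a stricter overlap lower a density by construction, and for the flank the cause was not tested. No paired analysis was possible because the 2 replicates form a single group. Among shared distal peaks alone CATTGT was in 5.0% of the windows' peaks, AAGGTCA in 7.5% and CCACCC in 8.75%, as means of replicates, while over all shared distal peaks the shares were 9.77% and 9.78%, 5.84% and 5.81%, and 12.4% and 12.3%. The depth of the libraries is unknown, so the strength below which sites go undetected cannot be given.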

Other observations

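The replicates differed most in the number of peaks around Dppa5a, where replicate 1 had 8 peaks and replicate 2 had 16, with 7 shared in each. The 9 peaks of replicate 2 without a match scored 27 to 51, and the highest were at the Ooep promoter (49 and 51). At Klf4 the peak 976 bp into the gene scored 36 in replicate 1 and 78 in replicate 2, a log2 ratio of 1.12 where the median over all shared peaks was 0.26.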
